A study of Mus musculus with 6 samples.

Results

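The interferon receptor chains and the Janus kinases (JAKs) that sit on them were followed in cultured mouse embryonic fibroblasts with lowered ARF. The group was given as 9 genes, namely Ifnar1, Ifnar2, Ifngr1, Ifngr2, Il10rb, Jak1, Jak2, Jak3 and Tyk2, and a probeset was taken where the platform annotation gave it 1 of these symbols alone. This found 8 of the 9 genes, with 1 probeset each, among 19288 genes with a single-gene probeset. Jak3 has a probeset only in common with another gene, so no value is given for it. The 8 probesets lay above the detection level, the 25th percentile of an array, on all 6 arrays and were tested with 15145 genes in all.

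The study used Affymetrix gene-level arrays on fibroblasts that the series title calls dp53R, and the sample titles of both groups carry the word Ras. The control cells held the hairpin construct shSCR and the other cells the hairpin construct shARF, with 3 arrays each. ARF, a tumour suppressor, is encoded by Cdkn2a, and the design asks which transcripts differ when it is lowered. The labels do not say which p53 or Ras alleles the cells carry, nor whether the replicates, called biological, are separate cultures or animals. So a p-value here sets a difference only against the spread among these arrays, and that spread may be technical.

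Interferons act through paired receptor chains that carry no kinase of their own. The type I receptor joins IFNAR1, which holds the kinase TYK2, to IFNAR2, which holds JAK1. The interferon gamma receptor joins the ligand-binding chain IFNGR1, which holds JAK1, to IFNGR2, which holds JAK2. IL10RB, with TYK2, is the chain that receptors for interleukin 10, interleukin 22 and the lambda interferons have in common, and JAK3 works with the common gamma chain of interleukin receptors, chiefly in lymphocytes. Bound receptors bring the kinases together, which then phosphorylate STAT proteins. STAT2 works with IRF9 on type I targets.

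The arrays had median signals of 41.97 to 42.86, on a linear scale after normalization by the authors. The hairpin's target Cdkn2a read 535, 539 and 516 on the shSCR arrays and 315, 254 and 286 on the shARF arrays. Cdkn2a fell by 0.90 ± 0.0865 (SE) in log2 units (limma, adjusted p = 0.00459). This probeset may also read p16Ink4a, the other product of that locus. All 9 fibroblast markers were tested and 0 passed in limma, against 4.01% of all tested genes. Before adjustment, 1 had p under 0.05 and a higher value and 2 a lower one, against 8.76% and 13.4% of all tested genes. SAM called 1 lower, against 3.92%. The summed signal of the 9 markers spanned 21520 to 23108 on the shSCR arrays and 22604 to 23406 on the shARF arrays. Of 7 macrophage markers 4 (Adgre1, Csf1r, Itgam and Lyz2), and of 8 measured lymphocyte markers 4 (Ptprc, Cd3g, Cd79a and Ms4a1), exceeded the detection level on 0 arrays. Cd68, Cd14, Cd3e, Cd8a and Cd53 exceeded it on all 6.

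Among the 8 measured genes Ifngr1 alone passed the test, and it was lower in shARF. In limma at an adjusted p under 0.05, 1 of 8 was called lower and 0 higher. Over all tested genes 4.01% were called, 2.38% lower and 1.62% higher. Before adjustment 4 of the 8 had p under 0.05, all of them lower in shARF, against 13.4% lower and 8.76% higher over all tested genes. SAM (significance analysis of microarrays, the test the study's design text names) called 2 of the 8 lower and 0 higher, against 3.92% and 2.67% of all tested genes. The shARF values of 5 genes, Ifngr1, Ifnar1, Il10rb, Jak2 and Jak1, all lay below every shSCR value, which held for 16.6% of all tested genes. The median log2 difference, shARF minus shSCR, was -0.18 over the 8 genes, in a range of -0.56 to 0.04, and -0.01 over all tested genes. In bulk samples, fewer cells of a type and less RNA per cell cannot be told apart.

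**Figure D1:**
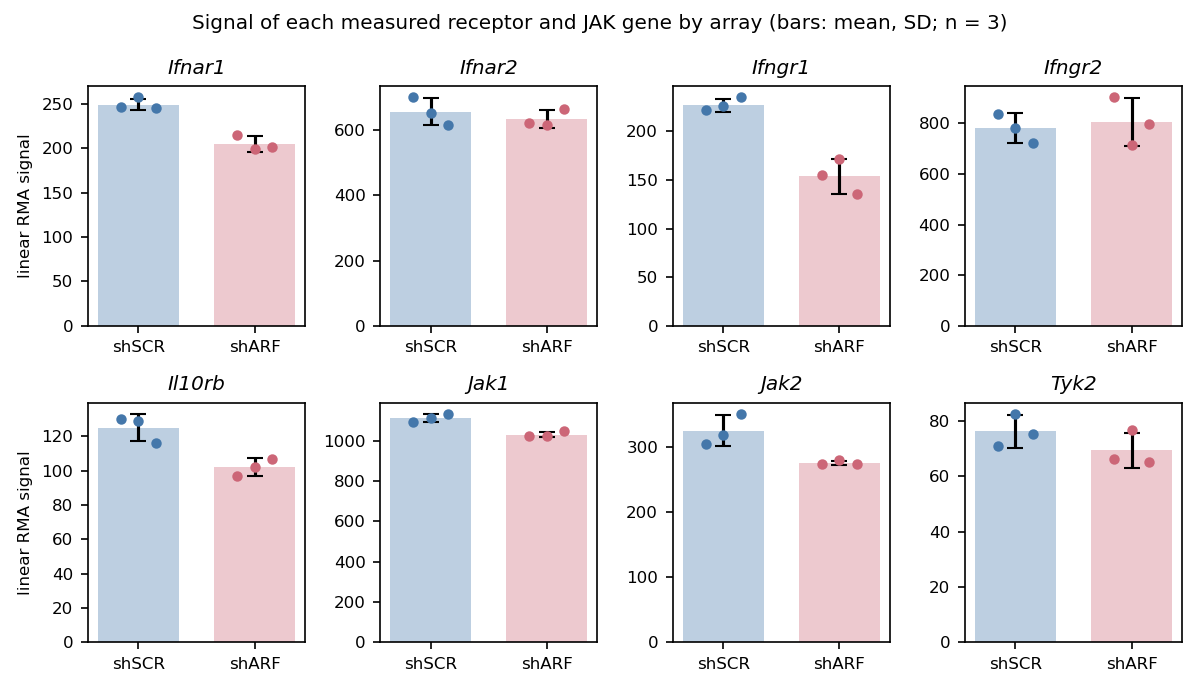
Linear RMA signal of the 8 measured genes on each array (points), with the mean and SD of 3 arrays as bars, for shSCR in blue and shARF in red. Ifngr1 went from a mean of 227 to 154 without overlap, while Ifnar2, Ifngr2 and Tyk2 overlap. Signals of different genes come from different probes and are not on 1 scale.

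Ifngr1, the ligand-binding chain of the interferon gamma receptor, read 222, 226 and 235 on shSCR replicates 1, 2 and 3. It read 155, 172 and 136 on shARF replicates 1, 2 and 3. Every shARF array was lower than every shSCR array, and the shARF arrays were more spread, with an SD of 18.1 against 6.61. The transcript fell by 0.56 ± 0.0918 (SE) on the log2 scale (95% interval -0.78 to -0.35; limma, adjusted p = 0.023), which leaves 67.6% of the shSCR level. Of 15145 tested genes, this difference was the 144th lowest. The call was lost without shSCR replicate 1, 2 or 3 (adjusted p = 0.0764, 0.0719 and 0.0966 in limma) and without shARF replicate 1 (0.0692). It held without shARF replicate 2 (0.0235) or 3 (0.0479), and the difference stayed between -0.65 and -0.48.

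Ifngr2, which brings JAK2 to the same receptor, did not pass the test. Its signals were 839, 781 and 722 in shSCR and 903, 715 and 799 in shARF. The groups overlapped, and the highest and the lowest of the 6 values were both shARF arrays. On the log2 scale the difference was 0.04 ± 0.101 (95% interval -0.19 to 0.28; limma, adjusted p = 0.85). Its sign turned without shSCR replicate 3 (-0.01) and without shARF replicate 1 (-0.04). Within each array, the log2 ratio of Ifngr1 to Ifngr2 was -1.92, -1.79 and -1.62 in shSCR and -2.54, -2.05 and -2.55 in shARF, so the groups did not overlap. The ratio shifted by -0.61 on the log2 scale (exact two-sided permutation test, p = 0.1), and 0.1 is the smallest p that 3 against 3 arrays can give.

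Neither chain of the type I receptor passed the test. Ifnar1, the chain that holds TYK2, read 246, 257 and 245 in shSCR and 215, 199 and 201 in shARF. All shARF values were below all shSCR values. The log2 difference was -0.28 ± 0.0613 (95% interval -0.42 to -0.14; limma, adjusted p = 0.0572), or 82.4% of the shSCR level. Ifnar1 was called by SAM (q = 0.0368) and by limma when the detection level was set at the 50th percentile (adjusted p = 0.0241), and it was not called without any 1 of the arrays (0.0826 to 0.162).

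Ifnar2, the chain that holds JAK1, read 700, 651 and 616 in shSCR and 623, 615 and 665 in shARF. The groups overlapped over most of their range. Its log2 difference was -0.05 ± 0.0707 (95% interval -0.21 to 0.12; limma, adjusted p = 0.747), so a drop of the size measured for Ifngr1 lies outside the interval. The log2 ratio of Ifnar1 to Ifnar2 within an array was -1.51, -1.34 and -1.33 in shSCR and -1.53, -1.63 and -1.72 in shARF. It shifted by -0.23 (exact two-sided permutation test, p = 0.1, the smallest possible).

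Il10rb, the chain used by interleukin 10 and lambda interferon receptors, read 130, 129 and 116 in shSCR and 96.7, 102 and 107 in shARF. The groups did not overlap, and the nearest values were 116 and 107. The log2 difference was -0.30 ± 0.0735 (95% interval -0.47 to -0.12; limma, adjusted p = 0.0807) and did not pass. With the detection level at the 50th percentile it did (0.0402). Against Ifnar2 within each array the log2 ratio was -2.42, -2.33 and -2.41 in shSCR and -2.69, -2.59 and -2.63 in shARF, a shift of -0.25 (exact two-sided permutation test, p = 0.1, the smallest possible). Adjusted over the 3 chain pairs compared, the p stayed at 0.1 for each.

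**Figure D2:**
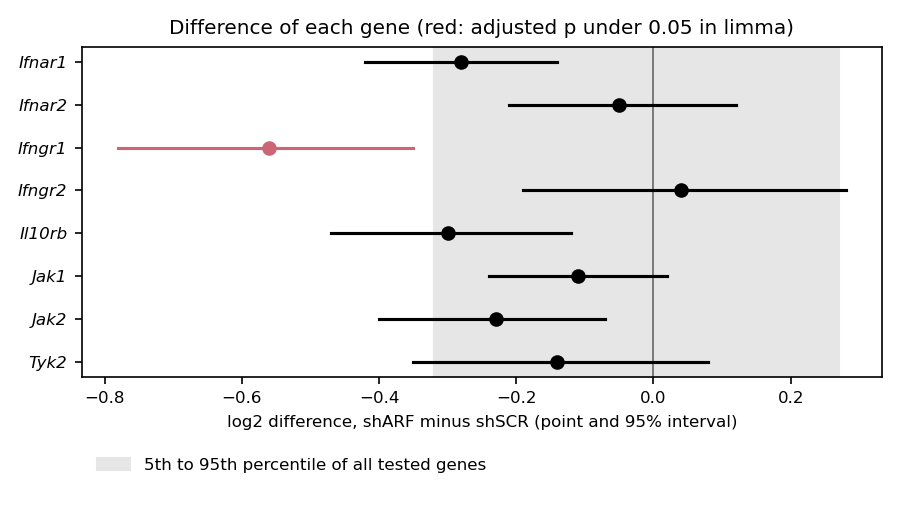
Log2 difference, shARF minus shSCR, of each measured gene (point) with its 95% interval from limma, against the 5th to 95th percentile of all tested genes (grey, -0.32 to 0.27). Ifngr1 at -0.56 lies below the grey band, and the intervals of Ifnar2, Ifngr2, Jak1 and Tyk2 span 0.

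None of the 3 measured kinase genes passed the test in limma or in SAM, and 1, Jak2, had an unadjusted p under 0.05. Jak1, the kinase that serves both the type I and the interferon gamma receptor, read 1091, 1111 and 1132 in shSCR and 1023, 1021 and 1046 in shARF. The groups did not overlap, and the arrays of a group lay close together. The log2 difference was small, -0.11 ± 0.0547 (95% interval -0.24 to 0.02; limma, adjusted p = 0.308).

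Jak2, the kinase on IFNGR2, read 305, 318 and 351 in shSCR and 274, 280 and 274 in shARF. The shARF arrays were lower without overlap, and the shSCR array of replicate 3 stood highest. The log2 difference was -0.23 ± 0.0699 (95% interval -0.40 to -0.07; limma, adjusted p = 0.127). Tyk2, the kinase on IFNAR1 and IL10RB, lay at no less than 4.36 times the detection level. It read 70.8, 82.5 and 75.2 in shSCR and 66.4, 76.7 and 65 in shARF, and the groups overlapped. The log2 difference was -0.14 ± 0.0903 (95% interval -0.35 to 0.08; limma, adjusted p = 0.435).

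The setting of the test decided how many of these genes were called. The count was 1 in the fit reported here and also with no detection filter, with quantile normalization repeated and with arrays centred on their medians. It was 3 (Ifngr1, Ifnar1 and Il10rb) with the detection level at the 50th percentile and with trend and robust moderation of the variance. It was 2 (Ifngr1 and Ifnar1) in SAM and when a gene's probesets were averaged, and 0 without any 1 of the shSCR arrays or without shARF replicate 1. Jak2 came nearest to a call with trend and robust moderation (adjusted p = 0.0535).

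**Figure D3:**
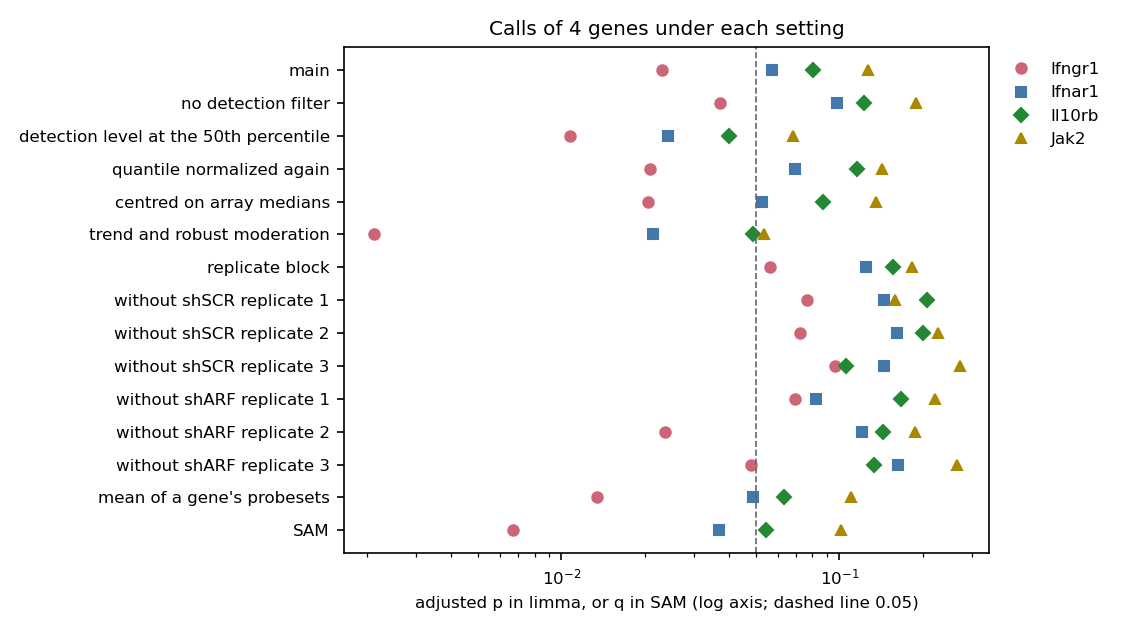
Adjusted p in limma, or q in SAM, on a log axis for Ifngr1, Ifnar1, Il10rb and Jak2 under each setting, with the threshold of 0.05 as a dashed line. Ifngr1 lies left of the line in the setting named main (0.023) and right of it in 5 other settings.

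The promoters of these genes were read from RefSeq windows of 300 bases, from 250 before to 50 after the annotated start, on build GRCm38.p6. Windows matched 8 of the 9 genes, all but Il10rb. Windows were searched on both strands for the core of the interferon-stimulated response element (ISRE), written as GAAA, any 2 bases, then GAAA, and for the core of the gamma-activated site (GAS), TTCNNNGAA, and hits may overlap. The ISRE core was in 0 of the 8 windows, against 3.44% of all 32851 windows and 7 of 12 type I target genes with a window. The GAS core was in 2 of the 8, Ifnar1 and Ifnar2, against 8.3% of all windows and 5 of 11 interferon gamma target genes with a window. The Ifnar1 match starts at position -5 and that of Ifnar2 at -214, counted from the annotated start. The 7 measured genes with a window held 14 to 44 CpG dinucleotides in it, where the median over all windows was 7 and 36.3% of windows held at least 14. A match of these letters is not a site, and the absence of a match says only that the letters are not in the window.

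The windows of Ifngr1, the gene that fell, of Ifnar1, and of the type I target Ifit1, which rose, are shown to set a receptor promoter beside a target promoter, with matches to either core in capitals. They lie at chr10:19591699-19591998, chr16:91484965-91485264 and chr19:34640639-34640938 of GRCm38.p6, all on the plus strand, 5′ to 3′. In the Ifit1 window both matches are ISRE cores on the opposite strand, from -104 and from -85, and it holds 4 CpG dinucleotides against 14 for Ifngr1 and 26 for Ifnar1. Ifit1 does not stand for all targets. The Irf1 windows held 32 and 43 CpG dinucleotides and no ISRE core, and the window with 32 held 1 GAS core, from -90. The Oasl2 window held 3 CpG dinucleotides and neither core. That of Gbp7 held 8, with 1 ISRE core and 2 GAS cores.
Ifngr1: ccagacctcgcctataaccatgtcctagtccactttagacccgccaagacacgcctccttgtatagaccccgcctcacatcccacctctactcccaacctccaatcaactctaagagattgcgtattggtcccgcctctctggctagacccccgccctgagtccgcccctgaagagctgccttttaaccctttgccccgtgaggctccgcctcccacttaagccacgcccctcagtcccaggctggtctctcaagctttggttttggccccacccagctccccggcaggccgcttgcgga
Ifnar1: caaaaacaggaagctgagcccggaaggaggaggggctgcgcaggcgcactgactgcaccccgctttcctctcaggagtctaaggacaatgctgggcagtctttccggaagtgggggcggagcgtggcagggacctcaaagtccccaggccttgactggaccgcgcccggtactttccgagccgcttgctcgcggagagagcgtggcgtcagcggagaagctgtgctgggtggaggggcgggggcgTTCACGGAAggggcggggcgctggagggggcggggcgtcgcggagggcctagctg
Ifit1: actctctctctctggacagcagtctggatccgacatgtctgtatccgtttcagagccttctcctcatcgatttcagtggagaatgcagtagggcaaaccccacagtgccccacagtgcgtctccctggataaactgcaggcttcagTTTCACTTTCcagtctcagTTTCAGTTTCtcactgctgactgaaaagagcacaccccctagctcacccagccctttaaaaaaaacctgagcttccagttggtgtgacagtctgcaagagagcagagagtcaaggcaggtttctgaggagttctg

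Ifnar2, Il10rb, Ifnar1 and Ifngr2 lie next to each other in this order on chromosome 16, so the changes could be read along the locus. The inner genes Il10rb and Ifnar1 had differences of -0.30 and -0.28, and the outer genes Ifnar2 and Ifngr2 of -0.05 and 0.04. Among the 6 nearest protein-coding genes on either side, 10 of 12 were tested. Of these 1 was called, against 4.01% of all tested genes. The called neighbour was Tmem50b, which encodes a membrane protein and lies next to Ifngr2. It fell by 0.36 ± 0.0754 on the log2 scale (limma, adjusted p = 0.0494), and the call was lost without any 1 of the arrays (0.0783 to 0.144). The others ranged up to 0.33, for Dnajc28, and overlapped between groups.

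Ifngr1 lies on chromosome 10 beside Il22ra2 and Il20ra, which encode receptors of the same class II family. Il22ra2 exceeded the detection level on 0 arrays and Il20ra on 2, both shSCR, which was too few to be tested. Of the 12 nearest protein-coding genes 7 were tested. None of these neighbours was called in limma, against 4.01% of all tested genes. SAM called none of them either, and 0 had an unadjusted p under 0.05 in limma. Their differences ranged from -0.13 to 0.19. Tnfaip3, an inhibitor of NF-kappaB signalling, had the highest, and the Ifngr1 difference of -0.56 lay outside that range.

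**Figure D4:**
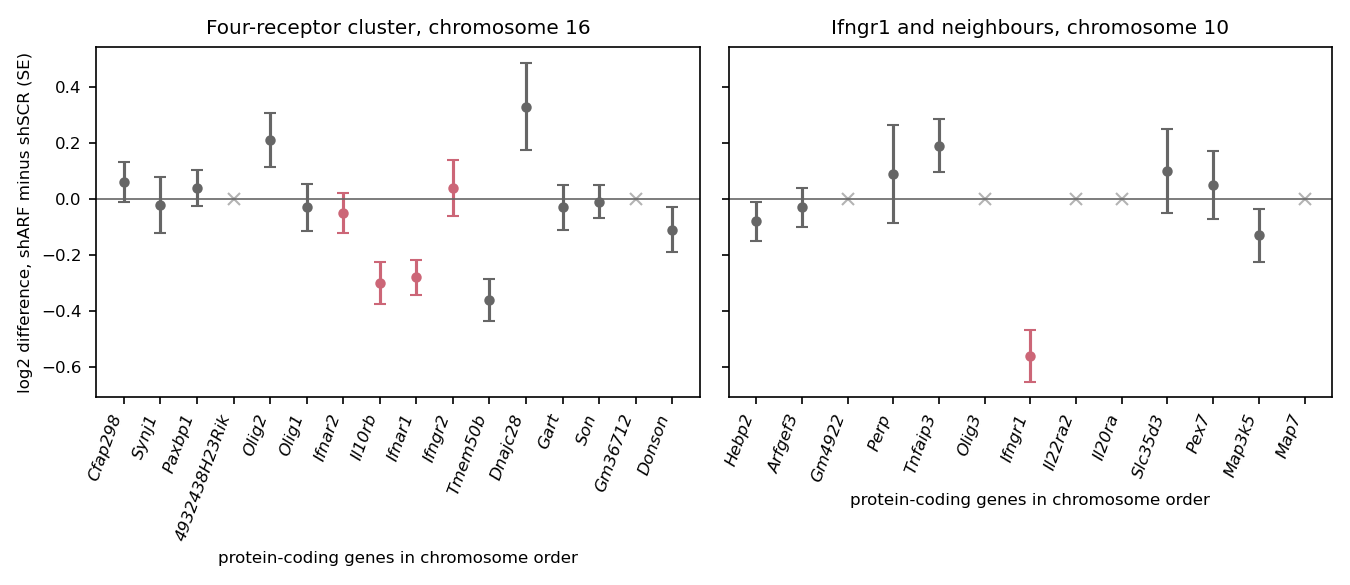
Log2 difference, shARF minus shSCR, with its SE, for genes in chromosome order around the receptor cluster on chromosome 16 (left) and around Ifngr1 on chromosome 10 (right), the receptor genes in red and genes not tested as grey crosses at 0. Il10rb, Ifnar1 and Tmem50b lie below 0, while Ifnar2 and Ifngr2 sit near it.

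The genes whose values over the 6 arrays were most like those of Ifngr1 were Pde1a, Gpam, Pmpcb, Rprd1a and Get1, with Pearson correlations of 0.9987, 0.9982, 0.9962, 0.9962 and 0.9957. Genes with Gm, Rik or LOC names, olfactory and vomeronasal receptors and small RNAs were left out of this ranking. The 6 points fall into the same 2 groups for each gene, and 260 of the ranked genes had a correlation over 0.95, so these are descriptions. Pde1a, a cyclic nucleotide phosphodiesterase, read 48.7, 48.9 and 52 in shSCR and 29.4, 35.2 and 25.8 in shARF. Like Ifngr1, it was highest on replicate 2 and lowest on replicate 3 among the shARF arrays. Pde1a and Pmpcb passed the test (limma, adjusted p = 0.0192 and 0.0375), and the other 3 did not (0.0501 to 0.0855).

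No gene of the ligand list was called. The list takes in whole cytokine families, and Il19, Il20 and Il24 on it are not ligands of the receptor chains followed here. Of 26 listed interferons and interleukin 10 family cytokines, 20 had a single-gene probeset and 10 were above the detection level. Of the 10, 0 passed in limma or in SAM. Before adjustment, 2 with higher and 1 with lower values had p under 0.05 in limma, against 8.76% and 13.4% of all tested genes. Neither Ifnb1, the interferon beta gene, at 6.93 to 9.23, nor Ifng, the interferon gamma gene, at 12.4 to 13.7, reached the detection level on any array. The probesets with the smallest p were Ifna9, Ifna14 and Il24, with log2 differences of -0.26, 0.26 and 0.34 (limma, adjusted p = 0.137, 0.16 and 0.191). Interferon alpha genes are near copies of each other, so single values for them are uncertain.

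Other receptors that signal through JAKs changed downward where they passed the test. Of 39 listed, 23 were tested, of which 5 fell, 0 rose and 18 did not pass. The share called was 21.7%, against 4.01% of all tested genes. The 5 include Lepr, which entered the test only through its shSCR arrays, so its fall adds nothing to that direction. SAM called 5 lower and 1 higher. Before adjustment, limma gave p under 0.05 to 9 with lower and 2 with higher values, against 13.4% and 8.76% of all tested genes. The median log2 difference was -0.11. Lifr, Osmr and Cntfr, which encode chains that pair with gp130 in receptors for leukaemia inhibitory factor, oncostatin M and ciliary neurotrophic factor, all fell.

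Osmr, the oncostatin M chain, went from 592, 533 and 538 in shSCR to 437, 408 and 403 in shARF, a drop of 0.41 ± 0.0696 on the log2 scale (limma, adjusted p = 0.026). Lifr read 115, 125 and 123 and then 96.3, 91 and 84.6, and Cntfr 105, 106 and 101 and then 85.8, 76.2 and 83.5. Il4ra, the interleukin 4 receptor chain, fell from 339, 299 and 354 to 245, 221 and 219, by 0.53 ± 0.0849 (limma, adjusted p = 0.0219). Over the 23 tested receptors, every shARF value lay below every shSCR value in 9, Lepr among them, and above in 2. Over all tested genes this held for 2515 (below) and 1817 (above) of 15145.

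No shARF array showed the leptin receptor gene Lepr over the detection level, and it was at least 1.46-fold lower there, setting the shSCR mean against that level (limma, adjusted p = 0.0114). It entered the test only through its 3 shSCR arrays, so it had to differ, and its p rests on shARF values under that level. Il6st, which encodes gp130 itself, read 1132, 973 and 1129 in shSCR and 924, 945 and 857 in shARF and did not pass (limma, adjusted p = 0.155). Il15ra, with a difference of 0.37 ± 0.0935, and Il9r, with 0.22, did not pass either (limma, adjusted p = 0.0832 and 0.127). Osmr and Cntfr lost their calls when 1 array was left out in all 6 cases, Lifr in 5 and Il4ra in 4, and the number called was 1 to 3.

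Among carriers of the signal past the receptor, those that passed the test rose. Of 14 listed, 11 were tested, of which 3 rose, 0 fell and 8 did not pass. The share called was 27.3%, against 4.01% of all tested genes. SAM called 3 higher and 1 lower. Before adjustment, 4 with lower values and 3 with higher had p under 0.05 in limma, against 13.4% and 8.76% of all tested genes. The median difference was 0.06. Stat2, the partner of IRF9 in the type I complex, rose from 112, 139 and 110 to 299, 277 and 247. Irf9 rose from 78.2, 96.1 and 75 to 164, 176 and 130, and Nmi, an interferon-induced partner of STATs, from 67.3, 74.4 and 60.9 to 107, 132 and 109. In all 3, shSCR replicate 2 was the highest control. Over the 11 tested carriers, every shARF value lay above every shSCR value in 3 and below in 4. Over all tested genes this held for 1817 (above) and 2515 (below) of 15145.

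Stat3, the main STAT of gp130 receptors, had a difference of -0.27 ± 0.0576 and did not pass (limma, adjusted p = 0.0504). Kpna1, a nuclear import receptor, and Prmt1, an arginine methyltransferase, differed by -0.26 and -0.21 (limma, adjusted p = 0.0937 and 0.105). Stat2 kept its call without any 1 array. Irf9 lost its call without shSCR replicate 1 or 3 and without shARF replicate 1 or 2, and Nmi without shSCR replicate 1 or 3, where 1 carrier was called.

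Of 27 regulators of the receptors and JAKs, 26 were tested, of which 2 rose, 1 fell and 23 did not pass. The share called was 11.5%, against 4.01% of all tested genes. SAM called 2 higher and 2 lower. Before adjustment, limma gave p under 0.05 to 2 with higher and 6 with lower values, against 8.76% and 13.4% of all tested genes. The median difference was -0.01. Usp18, which binds IFNAR2 and holds back JAK1 there, rose from 34.5, 73.9 and 34.3 to 216, 333 and 182, by 2.41 ± 0.337 on the log2 scale (limma, adjusted p = 0.0143). In both groups the replicate 2 array was the highest, and the call was lost without shSCR replicate 1 or 3.

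Socs2, a feedback inhibitor best known for restraining growth hormone signalling, fell from 266, 250 and 247 to 141, 127 and 135, by 0.92 ± 0.0658 (limma, adjusted p = 0.00212). It kept its call without any 1 array. These values are from its brightest probeset, and with its probesets averaged the difference was smaller, -0.62 (limma, adjusted p = 0.0189). Sh2b3, the adaptor LNK that restrains JAK2, rose from 193, 176 and 173 to 249, 228 and 239 (limma, adjusted p = 0.0275) and lost its call in all 6 cases. Stambp, Socs5 and Socs3 had differences of -0.30, -0.24 and -0.25 and did not pass (limma, adjusted p = 0.0636, 0.111 and 0.134).

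Of 15 tested type I targets, 14 rose and 0 fell (93.3% called, against 4.01% of all tested genes), and the median log2 difference was 1.79. They were Bst2, Ddx58, Ifih1, Ifit1, Ifit2, Ifit3, Irf7, Mx2, Oas1a, Oas2, Oasl2, Rsad2, Rtp4 and Xaf1, and Isg20 did not pass (limma, adjusted p = 0.126). Mx2 exceeded the detection level on 1 shSCR array and all 3 shARF arrays. It met the filter only through shARF, so its place among the 14 adds nothing to their direction. SAM called 14, all higher, against 2.67% of all tested genes. Before adjustment all 15 had higher values with p under 0.05 in limma, against 8.76%. Summed over the list, the signal was 1040 to 1677 in shSCR and 3889 to 4812 in shARF. Without shSCR replicate 1 or 3 the number called was 7.

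Of 10 tested interferon gamma targets, 8 rose and 0 fell (80% called, against 4.01% of all tested genes), with a median of 1.09. They were Cxcl9, Gbp3, Gbp7, Iigp1, Irf1, Irgm1, Psmb9 and Tap1, and most of them are also known to answer type I interferon. No shSCR array showed Iigp1 over the detection level, and it was at least 2.37-fold higher in shARF. It entered the test only through its 3 shARF arrays, so it had to differ, and its place among the 8 adds nothing to their direction. SAM called 8, all higher, against 2.67% of all tested genes. Before adjustment the same number had higher values with p under 0.05 in limma, against 8.76%. Ciita and Icam1 did not pass, at 0.07 and -0.06 (limma, adjusted p = 0.658 and 0.789). The target lists were chosen with earlier results of these arrays known, so their direction is not independent evidence.

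**Figure D5:**
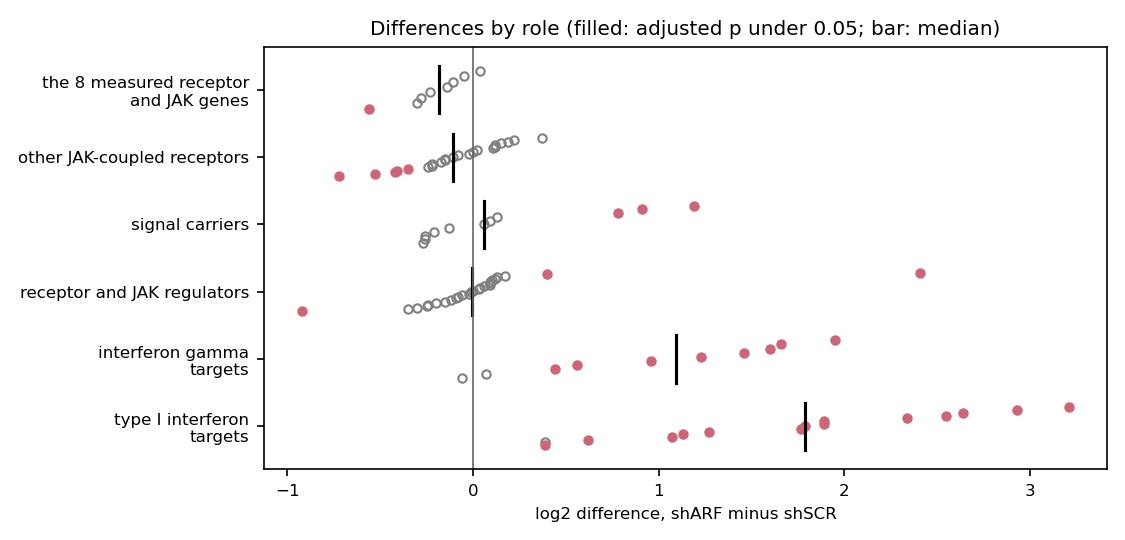
Log2 difference, shARF minus shSCR, of each tested gene by role, with filled points for genes past the limma threshold and a bar at the median. The median is -0.18 for the receptor and JAK genes, -0.11 for other JAK-coupled receptors, 1.09 for interferon gamma targets and 1.79 for type I targets.

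Of 3 tested lymphocyte markers, 1, the leukocyte surface gene Cd53, rose, and the summed signal of the list was 124 to 129 in shSCR and 135 to 152 in shARF. SAM called 1 of the 3 higher. Before adjustment 2 had p under 0.05 in limma, with higher values, and Cd3e had a difference of -0.17. Of 5 tested epithelial markers 1, the keratin gene Krt18, rose, with sums of 231 to 263 and 340 to 475. SAM called 2 of the 5 higher, 3 had p under 0.05 before adjustment in limma, and all 5 differences were above 0, with 0.74 for Krt8 (limma, adjusted p = 0.0583). Of 3 tested macrophage and 4 tested endothelial markers 0 passed in limma or in SAM, with 1 macrophage marker lower and 1 endothelial marker higher at an unadjusted p under 0.05. Their sums overlapped between groups, at 174 to 201 and 170 to 196 for macrophages. Over all tested genes, limma called 1.62% higher and 2.38% lower, and SAM 2.67% and 3.92%. Before adjustment, 8.76% with higher and 13.4% with lower values had p under 0.05 in limma. The part of these markers in the receptor values was not tested.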

How the data were processed

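The arrays were processed by the authors with RMA in Affymetrix Expression Console on core probesets, as the design text and the submitters' processing notes say. That text also has probesets absent across 12 arrays removed, though this series holds 6; the version and genome build used are not given in the sources used here. The deposited intensity values, 3.14 to 12717.5, are on a linear scale. Their log2 was taken here. Quantile normalization within RMA would hide a change common to most genes, and RMA makes folds of dim genes smaller. Of 26851 probesets 21056 carried 1 symbol and 1450 several, in a platform annotation that can be old.

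A probeset was tested if it exceeded the 25th percentile of its array on at least 3 arrays, which left 20310 probesets and 15145 genes, each gene read by its probeset with the highest mean. The test was limma 3.58.1 under R 4.3.3 (default settings, two-sided, Benjamini-Hochberg over all tested probesets). The median SE was 0.0815, and 3 arrays per group limit the precision. Chain ratios were compared by exact permutation over the 20 assignments. The scripts were tested on simulated data. Alternatives were SAM (all 20 assignments), other detection levels, normalizations and moderation, averaged probesets, the replicate number as a block, and leaving out each array.

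Named were every member, every called gene of the lists, up to 3 uncalled genes of a list with the smallest p, called neighbours and the 5 genes most correlated with a called member. Tnfaip3, Dnajc28, Il6st, Ifnb1, Ifng and the markers were chosen after their values were seen. The members and lists were chosen with earlier results of these data known. Names and chromosomes come from RefSeq GRCm38.p6.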

Additional observations from a re-analysis of the deposited data

How the results depend on the processing

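Of the 8 genes, 1 passed in limma. The count was 3 with the detection level at the 50th percentile or trend and robust moderation, 2 in SAM or with probesets averaged, 0 with the replicate number as a block, and 0 to 1 without each array in turn. Ifngr1 kept its direction under all 14 alternatives (-0.65 to -0.48) and its call in 9 of them. With the replicate block it was -0.56 (limma, adjusted p = 0.0561, in a range of 0.00211 to 0.0966). Ifnar1 at -0.28 was called under 4 alternatives: the detection level at the 50th percentile, trend and robust moderation, averaged probesets and SAM. Il10rb at -0.30 was called under 2, the same detection level and the same moderation. Without each array the differences of Ifnar2 ran from -0.09 to 0.00 and those of Ifngr2 from -0.04 to 0.12. The sign turned for Ifnar2 without shSCR replicate 1 (0.00) and for Ifngr2 without shSCR replicate 3 (-0.01) or shARF replicate 1 (-0.04). The 3 chain ratios kept their direction under the 7 alternatives run for them. Over all genes the number called was 607, and it was 372 with no detection filter, 996 at the 50th percentile, 1281 with trend and robust moderation, 336 with the replicate block, 997 in SAM and 150 to 330 without each array. Of the pathway lists 33 genes were called, and 16 to 26 without each array. The neighbour Tmem50b was called in limma, and the number of neighbours called was 0 with no detection filter, with quantile normalization repeated, with the replicate block and without each array (0 to 0). Stricter detection and fewer arrays change how many genes share the adjustment or the residual degrees of freedom; for the other settings the cause was not tested. Replicate numbers did not pair the arrays: deviations from the group means of same-numbered arrays correlated at 0.0778, 0.0518 and 0.000618, and shSCR replicate 3 was closest to shARF replicate 2 (0.0936). Precision is limited by the number of arrays, and dim genes lie near background.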
